A study of Mus musculus with 3 samples.

Results

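The cells described here are CD4+CD8+ double-positive (DP) thymocytes that the authors' clustering of the expression data placed in cluster 4. They were chosen by 2 deposited labels, the DP hashtag and cluster number 4, and numbered 1187 of the 12208 cells in the series. They made up 39.3% of the 3021 DP cells (exact Clopper-Pearson 95% interval 37.5 to 41.1), the most of any of the 15 clusters. All 1187 cells of cluster 4 carried the DP hashtag. The 832 DP cells of cluster 6 and the 769 DP cells of cluster 8 were the nearest in number and serve as the comparison, with 104 DP cells in cluster 11, 38 in cluster 13 and 91 spread over other clusters.

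The cells came from 1 pool of thymus from 8 female mice aged 7 to 12 weeks, of the genotype TCliB+ x TCRa+/- x Foxp3-GFP. All groups shared these alleles: a transgenic T cell receptor (TCR) β chain, a single functional TCRα allele and a green fluorescent reporter of Foxp3. All were sorted for surface Vα2, the protein product of the TRAV14 gene family. DP cells were sorted from whole thymus, whereas CD8-bearing cells had been depleted before the other 5 sorts: CD4 single-positive (CD4 SP) cells, 2 kinds of regulatory T cell (Treg) progenitor, CD25+ TRP and Foxp3lo TRP, and Treg sorted as CD73- or CD73+. These 5 are called the later populations below. The 3 libraries (gene expression, hashtag and TCRα) were made from the same cells, so each population was 1 sample without a replicate. No difference below was tested. Each interval on a share is an exact 95% interval, those on expression distances are approximate 95% intervals, and all cover counting error only. Cells of 1 clone are not independent, and which mouse a cell came from is not recorded in the labels.

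A DP thymocyte rearranges its TCRα gene by joining a V segment (TRAV) to a J segment (TRAJ). Joining usually begins with V segments near the J cluster and J segments near the V cluster. Further rounds on the same allele, each deleting the DNA between the new partners, use V segments farther upstream and J segments farther downstream, until the receptor is positively selected or the cell dies. TRAJ segments are numbered down toward the constant gene TRAC, so a high TRAJ number lies on the V side. The third complementarity-determining region of the α chain (CDR3α) spans the V-J join, where nucleases trim ends and terminal transferase adds bases.

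The J segments that at least 5% of the cluster 4 chains used are shown first. In J segment position, cluster 4 lay between the other DP clusters. TRAJ40 or higher was used by 53.9% of chains in cluster 4, 21.7% in DP cluster 6 and 4.67% in DP cluster 8. The small DP clusters had higher shares, 82.2% in cluster 11 and 100% in cluster 13. Among the segments shown, the interval of TRAJ42 overlapped those of clusters 6 and 8, and that of TRAJ37 overlapped that of cluster 8. The germline coding sequences are from GENCODE M21 (build GRCm38, plus strand of chromosome 14, annotated as TR_J genes). Capitals mark the codons of the Phe-Gly-X-Gly motif, whose Phe closes the CDR3.
TRAJ56, chr14:54159263-54159325: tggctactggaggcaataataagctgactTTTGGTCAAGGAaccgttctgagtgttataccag
TRAJ52, chr14:54165316-54165381: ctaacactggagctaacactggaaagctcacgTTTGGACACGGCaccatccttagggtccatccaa
TRAJ49, chr14:54168686-54168747: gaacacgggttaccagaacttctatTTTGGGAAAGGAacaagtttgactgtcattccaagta
TRAJ45, chr14:54172828-54172890: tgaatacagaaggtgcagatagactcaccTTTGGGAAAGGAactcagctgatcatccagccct
TRAJ42, chr14:54175773-54175836: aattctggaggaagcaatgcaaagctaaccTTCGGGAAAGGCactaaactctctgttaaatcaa
TRAJ37, chr14:54181518-54181577: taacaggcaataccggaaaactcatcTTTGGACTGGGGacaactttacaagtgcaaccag

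CDR3α joins from the deposited contigs follow, the first 3 for the sequences found in most cluster 4 cells and the last 5 for joins that later cells carried with the same V, J and nucleotides. The first join, where assigned to TRAV14-3, was carried in that form by 1 CD25+ TRP cell too. They are named by their amino acid sequence or by their J segment. Each runs from the conserved Cys codon to the Phe codon, and capitals mark bases that match neither the assigned V nor the assigned J germline segment.
the TRAJ42 join of 4 cluster 4 cells: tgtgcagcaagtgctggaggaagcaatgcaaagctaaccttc
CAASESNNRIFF (TRAV14-2 and TRAJ31, 2 cells): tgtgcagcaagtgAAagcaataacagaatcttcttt
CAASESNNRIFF (TRAV14N-1 and TRAJ31, 1 cell): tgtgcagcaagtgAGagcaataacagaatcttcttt
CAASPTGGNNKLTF (TRAV14-3 and TRAJ56): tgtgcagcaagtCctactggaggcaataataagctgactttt
the TRAJ13 join, with TRAV14D-2: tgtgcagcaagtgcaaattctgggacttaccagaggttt
the TRAJ42 join of 2 cluster 4 cells, with TRAV14-1: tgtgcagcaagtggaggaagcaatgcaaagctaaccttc
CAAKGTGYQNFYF (TRAV14N-1 and TRAJ49): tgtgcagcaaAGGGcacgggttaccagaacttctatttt
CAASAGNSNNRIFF (TRAV14-1 and TRAJ31): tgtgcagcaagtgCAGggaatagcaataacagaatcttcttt

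Cluster 4 cells held a median of 1545 unique molecular identifiers (UMIs, each counted as 1 mRNA molecule), with quartiles of 1321.5 and 1811 and a range of 784 to 4662. This was near cluster 6 (median 1592) and above cluster 8 (1087). DP cells of cluster 11 held a median of 5542 UMIs, those of cluster 13 held 2616 and CD4 SP cells 2718. The median number of detected genes was 961 in cluster 4, 968.5 in cluster 6 and 760 in cluster 8. With each cell thinned to 1000 UMIs, which left out 26 cluster 4 cells, 43 of cluster 6 and 242 of cluster 8, the medians were 685, 682 and 713, against 585 in CD4 SP. At equal depth, DP cells of these 3 clusters thus gave more genes per cell than CD4 SP cells. The 50 most abundant gene rows took 20.6% of the UMIs in cluster 4, 20.4% in cluster 6, 18.9% in cluster 8 and 29.4% in CD4 SP. Expression defined the clusters, so these values describe the clusters and support no difference between them. The gene rows carry no names in the files used here, so the DP identity of the cells could not be checked against Cd4, Cd8a, Rag1 or any other marker gene.

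Fewer than 1 in 3 cluster 4 cells yielded a productive α chain. Exactly 1 such chain was assembled in 349 cells, 29.4% (26.8 to 32.1). The share was 69.7% in cluster 6 (66.5 to 72.8) and 27.8% in cluster 8 (24.7 to 31.1), so cluster 4 lay far below cluster 6 and within counting error of cluster 8. It was 43.3% in DP cells of cluster 11, 36.8% in those of cluster 13 and 75.9% in CD4 SP. No productive α chain was found in 824 cluster 4 cells, 69.4% (66.7 to 72), although all had been sorted for surface Vα2. The median was 13 α UMIs per chain in cluster 4, 14 in cluster 6 and 10 in cluster 8. A β contig, from a library enriched for α, was present in 11% of cluster 4 cells (9.31 to 13), 21.4% of cluster 6 cells and 4.42% of cluster 8 cells.

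The gap to cluster 6 was present at each depth compared. Among cells with 1000 to 1249 UMIs, 22.5% of cluster 4 cells and 62.1% of cluster 6 cells had 1 productive α chain. Among cells with 1500 to 1999 UMIs the shares were 31.1% and 74.4%, and among those with 2000 to 2999 UMIs they were 36.1% and 79.1%. Cluster 8 gave 29.5% in the lowest of these bands and 34.3% at 1250 to 1499 UMIs, where cluster 4 gave 25.9%, with overlapping intervals. In the band from 1500 UMIs, 13 of 24 cluster 8 cells had 1 chain, 54.2% (32.8 to 74.4), and the interval overlapped that of cluster 4 (27 to 35.5). All values on TRAV, TRAJ and CDR3 below concern the 349 cells with 1 chain, and whether the other cluster 4 cells resembled them was not tested.

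**Figure D1:**
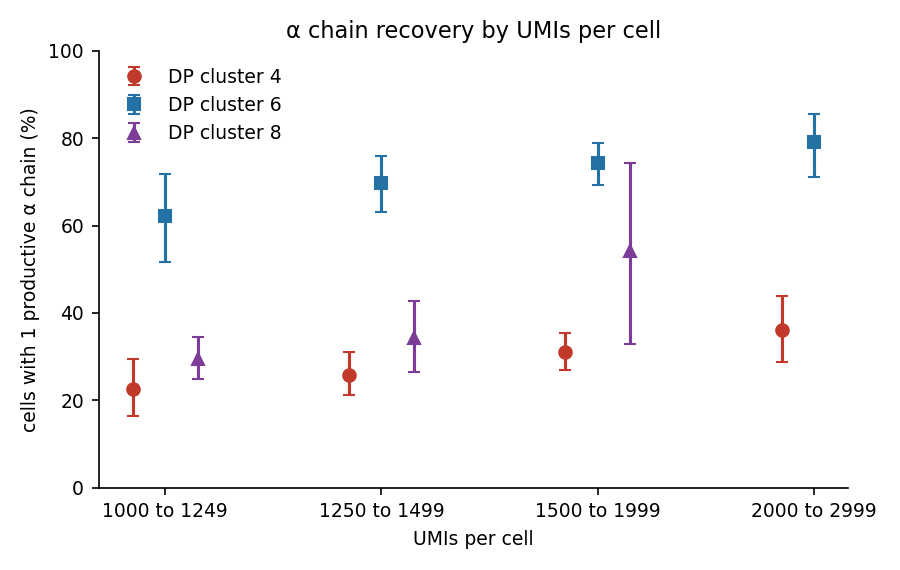
Share of DP cells with exactly 1 productive α chain (vertical axis, percent) by UMIs per cell (horizontal axis), for DP clusters 4, 6 and 8. Points are shares and bars exact 95% intervals. Cluster 4 rises from 22.5% to 36.1% and lies below cluster 6 in each band.

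Cluster 4 chains used J segments on the V side of the TRAJ array. The median segment number was 40 in cluster 4 (quartiles 30 and 49), 26 in cluster 6 (14.5 and 37), 17 in cluster 8 (7 and 29.5) and 23 in CD4 SP (13 and 33). Segments from TRAJ40 up were used by 53.9% of cluster 4 chains (48.5 to 59.2), 21.7% of cluster 6 chains (18.4 to 25.3), 4.67% of cluster 8 chains (2.26 to 8.43) and, in CD4 SP, 18.3% (16.5 to 20.1). The order was reversed at the other end, where 11.5% of cluster 4 chains (8.32 to 15.3) used TRAJ20 or lower, against 33.3% in cluster 6 and 52.8% in cluster 8. Across the 5 later populations the share with TRAJ40 or higher ran from 10.3% to 18.3%, and each interval lay below that of cluster 4. Measured along the chromosome, the median distance from the J segment to TRAC was 42.5 kb in cluster 4, 26 kb in cluster 6 and 18.7 kb in cluster 8.

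The small DP clusters 11 and 13 lay still closer to the V side. DP cells of cluster 11 had a median of TRAJ53 in 45 chains, with 82.2% at TRAJ40 or higher (67.9 to 92). DP cells of cluster 13 had a median of TRAJ57, and all 14 chains were at TRAJ40 or higher (76.8 to 100). From the V side to the C side, the order of medians was thus cluster 13, 11, 4, 6 and 8, with CD4 SP between 6 and 8. Cluster 13 had too few chains to be placed apart from cluster 11. The clusters were formed on expression, and transcripts of TRAV and TRAJ segments may be among the unnamed gene rows. Their part in the clustering was not tested.

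**Figure D2:**
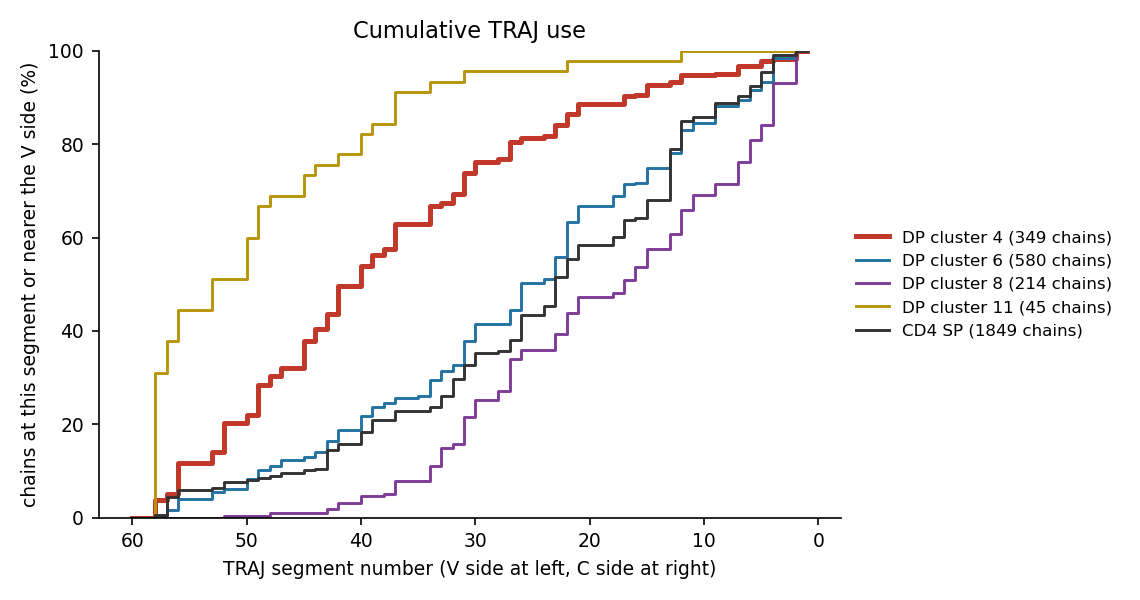
Cumulative share of α chains (vertical axis, percent) by TRAJ segment number (horizontal axis, V side at left), for DP clusters 4, 6, 8 and 11 and CD4 SP. At TRAJ40 the cluster 4 line stands at 53.9%, between cluster 11 at 82.2% and cluster 6 at 21.7%.

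Of the 43 TRAJ segments seen in these groups, 6 (14% of those compared) had a higher share in cluster 4 than in cluster 6 with exact intervals apart, and 7 (16.3%) a lower share. Those higher were TRAJ58, TRAJ56, TRAJ52, TRAJ49, TRAJ45 and TRAJ37. Those lower were TRAJ26, TRAJ22, TRAJ18, TRAJ12, TRAJ9, TRAJ6 and TRAJ4, so that each segment higher in cluster 4 lay on the V side of each segment lower in it. TRAJ56 was used by 23 cluster 4 chains, 6.59% (4.22 to 9.72), against 2.24% in cluster 6. TRAJ52 was used by 22 chains, 6.3%, against 0.69%. TRAJ49 was also used by 22 chains, 6.3%, against 2.07%. TRAJ45 was used by 20 chains, 5.73%, against 0.69%, and TRAJ37 by 19 chains, 5.44%, against 1.21%. TRAJ58, of these 43 the segment nearest the V genes, had 13 chains, 3.72%, against 0.172%. TRAJ42 was used by 21 cluster 4 chains, 6.02% (3.76 to 9.05), and its interval overlapped that of cluster 6 (1.33 to 4.02).

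Against cluster 8, 5 segments (11.6%) were higher in cluster 4 (TRAJ58, TRAJ56, TRAJ52, TRAJ49 and TRAJ45) and 4 (9.3%) were lower (TRAJ11, TRAJ6, TRAJ4 and TRAJ2). Of the 5, TRAJ52 had 1 cluster 8 chain and the other 4 had 0 of 214, which allows a share of up to 1.4% (that of 3 chains; the exact interval runs to 1.71%). TRAJ4 was used by 2 cluster 4 chains, 0.573%, and by 8.88% of cluster 8 chains. Cluster 4 had 0 of 349 chains with TRAJ18, TRAJ11 or TRAJ6, which allows a share of up to 0.86% each (that of 3 chains; the exact interval runs to 1.05%). TRAJ18 is the segment of the invariant natural killer T cell receptor. Against CD4 SP, 12 segments (27.9%) were higher and 8 (18.6%) lower. The lower ones included TRAJ13, the most used segment of CD4 SP, at 0.86% in cluster 4 and 10.7% in CD4 SP. The higher ones included TRAJ53, TRAJ48, TRAJ44, TRAJ42, TRAJ38 and TRAJ34 beside those named above. TRAJ26 and TRAJ23 were among the lower ones, at 0.86% and 2.29% in cluster 4 against 5.46% and 6.22%.

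Within the TRAV14 family, cluster 4 chains used mostly the copies that lie nearest to the J segments. The mouse locus holds the family in 3 blocks, and in chromosomal order the D copies come first, then the N copies, then TRAV14-1 (chr14:53554022-53554558), TRAV14-2 (chr14:53640701-53641225) and TRAV14-3 (chr14:53763173-53763694). These last 3 copies, without a letter, were used by 57.9% of cluster 4 chains (52.5 to 63.1), 40.2% of cluster 6 chains (36.2 to 44.3) and 12.6% of cluster 8 chains (8.48 to 17.8), with intervals apart. CD4 SP chains used them in 32.6% (30.5 to 34.8). In the small DP clusters the share was 73.3% of 45 chains in cluster 11 (58.1 to 85.4) and 64.3% of 14 chains in cluster 13 (35.1 to 87.2). TRAV14-3, the copy of the family closest to the J segments, was used by 92 cluster 4 chains, 26.4% (21.8 to 31.3), against 7.24% in cluster 6 and 0.935% in cluster 8. This share was not particular to cluster 4, as TRAV14-3 was at 26.7% in cluster 11 (14.6 to 41.9) and 50% in cluster 13 (23 to 77). TRAV14-2 was used by 17.5% of cluster 4 chains, 10% of cluster 6 chains and 5.61% of cluster 8 chains. TRAV14-1 did not follow this order, at 14% in cluster 4, 22.9% in cluster 6 and 6.07% in cluster 8.

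The D and N copies together were used by 28.9% of cluster 4 chains (24.2 to 34), 56.2% of cluster 6 chains and 71.5% of cluster 8 chains. TRAV14D-3-DV8 (chr14:53078452-53079045) had 20 cluster 4 chains, 5.73% (3.54 to 8.71), against 26.2% in cluster 6 and 12.1% in cluster 8. TRAV14N-1 had 40 chains, 11.5%, TRAV14N-3 had 21, 6.02%, TRAV14N-2 had 14, 4.01%, and TRAV14D-2 had 6, 1.72%. TRAV14N-3 was at 24.8% in cluster 8. Over the last 270 bases of the segments, TRAV14D-1 and TRAV14N-1 do not differ, nor do TRAV14D-2 and TRAV14N-2, so reads cannot tell the members of these pairs apart there. The 3 copies without a letter differ from each D or N copy at 5 or more of these bases. The closest such pair is TRAV14-3 and TRAV14N-3, with 5 differences.

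**Figure D3:**
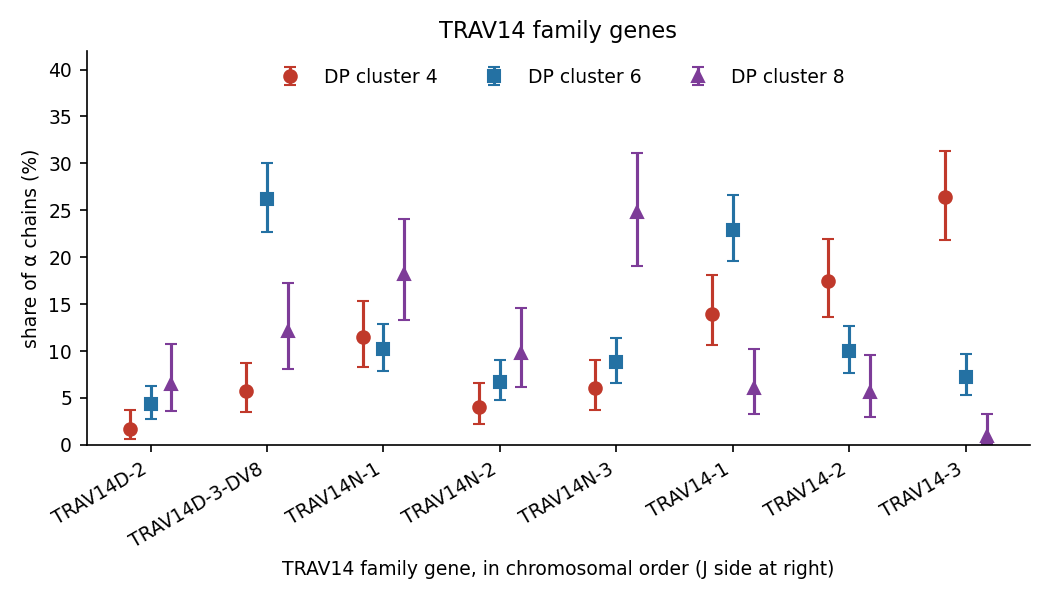
Share of α chains (vertical axis, percent) by TRAV14 family gene in chromosomal order (horizontal axis), for DP clusters 4, 6 and 8. Points are shares and bars exact 95% intervals. TRAV14-3, at the J side, takes 26.4% of cluster 4 chains and 0.935% of cluster 8 chains.

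TRAV and TRAJ positions went together in part within cluster 4. Of its 188 chains with TRAJ40 or higher, 69.7% (62.6 to 76.2) used TRAV14-1, TRAV14-2 or TRAV14-3. Of its 161 chains with TRAJ39 or lower, 44.1% (36.3 to 52.1) did. The same split in cluster 6 gave 67.5% and 32.6%. Among V-side joins the 2 clusters thus differed by less than counting error in this share. Among C-side joins the intervals of cluster 4 (36.3 to 52.1) and cluster 6 (28.3 to 37.1) just overlapped. In cluster 8 the share was 10.8% (6.88 to 15.9) of 204 C-side joins, with an interval below that of cluster 4. Its 10 V-side joins gave 50% (18.7 to 81.3), which overlapped cluster 4. By single copy, the 92 TRAV14-3 chains of cluster 4 had a median of TRAJ49, and 85.9% of them (77 to 92.3) were at TRAJ40 or higher. TRAV14-1 chains had a median of TRAJ39, with 49% at TRAJ40 or higher, and TRAV14-2 chains TRAJ38, with 45.9%. TRAV14N-1 chains, from a copy upstream of both, had a median of TRAJ39 too, with 47.5% (31.5 to 63.9) at TRAJ40 or higher. TRAV14N-3 chains had a median of TRAJ22, with 2 of 21 at TRAJ40 or higher. TRAV14N-1, which lies upstream of TRAV14N-3, thus did not follow map order. The 20 TRAV14D-3-DV8 chains did not follow it either, with a median of TRAJ42, whereas the 152 such chains of cluster 6 had a median of TRAJ18. The germline distance between the joined V and J segments had a median of 605 kb in cluster 4, 846 kb in cluster 6 and 953 kb in cluster 8. It was 535 kb in cluster 11 and 463 kb in cluster 13. This distance takes the position of the assigned copy, which is uncertain for TRAV14N-1 and TRAV14D-1 and for TRAV14N-2 and TRAV14D-2.

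Not all chains fitted the Vα2 sort. In cluster 4, 46 of 349 chains, 13.2% (9.81 to 17.2), used a TRAV gene outside the TRAV14 family. The share was 3.62% in cluster 6, 15.9% in cluster 8 and 0.216% in CD4 SP. The 46 chains were spread over 28 genes, with at most 4 chains of any 1 gene. They had a median of 12 α UMIs (3 to 35), against 13 (1 to 46) for TRAV14 family chains. Their J segments had a median of 38.5, and 47.8% (32.9 to 63.1) were at TRAJ40 or higher, which overlapped the 54.8% (49 to 60.5) of the 303 TRAV14 family chains.

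Cluster 4 cells with more UMIs carried J segments nearer the V side. The 88 cells of the lowest quartile by UMIs (898 to 1369) had a median of TRAJ31, and the medians of the next quartiles were TRAJ40, TRAJ44 and TRAJ47. The share at TRAJ40 or higher was 29.5% (20.3 to 40.2) in the lowest quartile, 51.7% in the second, 64.4% in the third and 70.1% (59.4 to 79.5) in the highest. The Spearman correlation of UMIs and TRAJ number was 0.34 over 349 cells, which share 1 library and 1 pool. It was 0.41 over 580 cells of cluster 6 and 0.24 over 214 cells of cluster 8, so a relation of the same sign was present within each cluster. At 1500 to 1999 UMIs, 62.3% of cluster 4 chains were at TRAJ40 or higher, against 22.7% in cluster 6 and 15.4% in cluster 8, so clusters 4 and 6 also lay apart at 1 depth. Cells with TRAJ40 or higher had a median of 1718.5 UMIs and 1017.5 genes, those with TRAJ39 or lower 1490 UMIs and 955 genes, and those without a productive α chain 1521.5 UMIs and 945.5 genes.

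**Figure D4:**
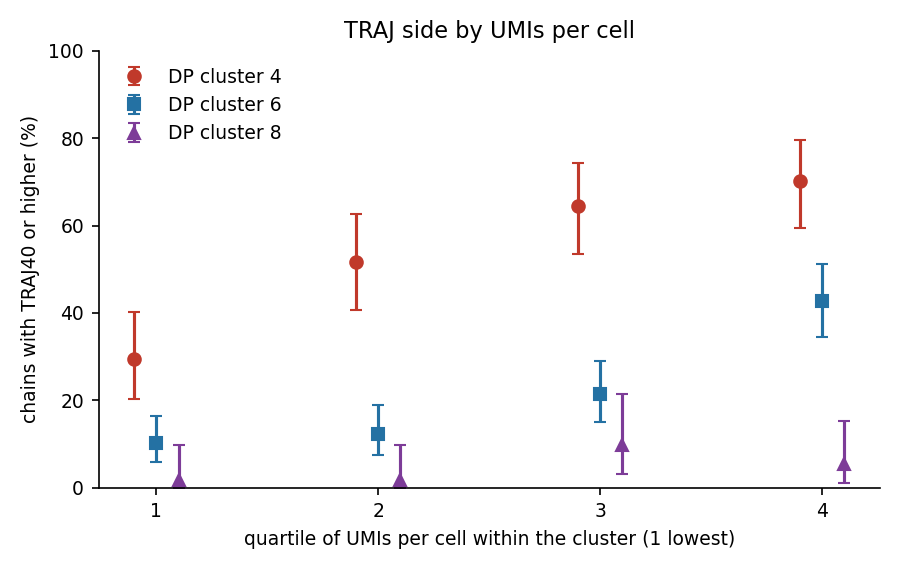
Share of α chains with TRAJ40 or higher (vertical axis, percent) by quartile of UMIs per cell within each cluster (horizontal axis), for DP clusters 4, 6 and 8. Points are shares and bars exact 95% intervals. Cluster 4 rises from 29.5% to 70.1%, and lies above cluster 6 in each quartile.

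The number of inserted bases at the join differed little between the large DP clusters. The 303 TRAV14 family chains of cluster 4 had a median of 3 inserted bases and a mean of 3.07, against means of 2.83 in cluster 6, 2.87 in cluster 8, 3.73 in the 44 chains of cluster 11 and 2.54 in CD4 SP. No inserted base was found in 51 cluster 4 joins, 16.8% (12.8 to 21.5), against 12.7% (10.1 to 15.7) in cluster 6, 9.44% (5.6 to 14.7) in cluster 8 and 4.55% (0.555 to 15.5) in cluster 11, with intervals that overlapped. The CDR3α was 13.8 ± 1.46 residues long (SD over 303 chains) in cluster 4, 13.4 ± 1.25 in cluster 6 and 13.6 ± 1.33 in cluster 8. Inserted bases were counted as those that match neither germline segment, which misses added bases that match by chance.

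Few cluster 4 cells shared a CDR3α with each other. The 349 chains held 329 different amino acid sequences and 344 different combinations of V, J and nucleotide CDR3. The number of different sequences expected among 150 cells drawn from each group was 146 in cluster 4, 144 in cluster 6, 148 in cluster 8 and 121 in CD4 SP. In cluster 4, 17 sequences were carried by 2 or more cells, 37 cells in all, and the largest had 4 cells, whereas the largest in CD4 SP had 113. The largest, the TRAJ42 join printed first, had the same nucleotide CDR3 in all 4 cells and no inserted base, but was assigned to 3 different TRAV14 copies: TRAV14-3 in 2 cells and TRAV14-1 and TRAV14N-2 in 1 each. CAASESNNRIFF had 3 cells and 2 nucleotide forms, each with 2 inserted bases, and was found in 0 later cells.

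Of the 349 cluster 4 cells, 81, or 23.2% (18.9 to 28), carried a CDR3α that was also found among the 5716 later cells with 1 chain. The share was 45.3% in cluster 6 (41.2 to 49.5) and 28% in cluster 8 (22.1 to 34.6), so cluster 4 lay below cluster 6 and overlapped cluster 8. By population, cluster 4 cells shared a CDR3α with CD4 SP in 11.5%, and with CD25+ TRP also in 11.5%. The share was 7.45% with CD73+ Treg, 4.01% with Foxp3lo TRP and 1.43% with CD73- Treg. The later populations held between 223 and 1849 chains, and these shares are not corrected for that number. Cluster 6 shared more in each population, from 6.38% with CD73- Treg to 31.2% with CD25+ TRP, and its intervals lay above those of cluster 4 in all 5. Cluster 8 lay above cluster 4 with intervals apart for Foxp3lo TRP, at 11.2% (7.32 to 16.2), and for CD73- Treg, at 6.54% (3.62 to 10.7), and overlapped it for the other 3. Counted by different CDR3α, 74 of 329 sequences in cluster 4 were shared, 22.5% (18.1 to 27.4), against 39.5% in cluster 6. In that count cluster 8 overlapped cluster 4 for CD73- Treg, at 5.71% (2.99 to 9.77) against 1.52% (0.495 to 3.51). For Foxp3lo TRP the intervals lay just apart, at 10.5% (6.68 to 15.4) in cluster 8 against 3.95% (2.12 to 6.66).

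**Figure D5:**
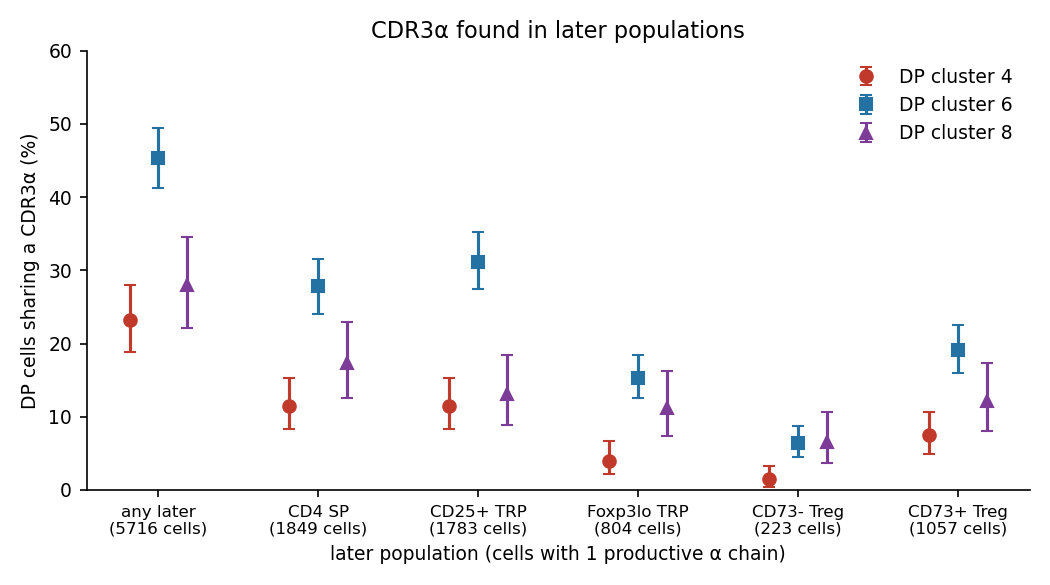
Share of DP cells whose CDR3α amino acid sequence was found in each later population (vertical axis, percent), for DP clusters 4, 6 and 8; the horizontal axis gives the population and its cells with 1 productive α chain. Points are shares and bars exact 95% intervals. For any later population cluster 4 stands at 23.2% and cluster 6 at 45.3%.

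Of these 81 cells, 48 had the nucleotide CDR3 and J segment of a later cell and 33 shared the amino acid sequence alone. The 48 cells made 13.8% of cluster 4 (10.3 to 17.8), against 29.8% in cluster 6 (26.1 to 33.7) and 16.8% in cluster 8 (12.1 to 22.5). When the assigned V gene had to be the same too, 8 cluster 4 cells were left, 2.29% (0.995 to 4.47), which carried 6 different chains. That share was 16% in cluster 6 (13.1 to 19.3) and 4.67% in cluster 8 (2.26 to 8.43). Matches went by the assigned gene name, so cells split between TRAV14D-2 and TRAV14N-2, which share their last 270 bases, counted as unmatched. Cluster 4 thus lay below cluster 6 and overlapped cluster 8 at each level of match. Shared TRAV14 family chains of cluster 4 had a median of 2 inserted bases and unshared ones a median of 4. With 2 or fewer inserted bases 41.1% of chains (32.4 to 50.3) were shared, and with 3 or more 15.1% (10.2 to 21.2). The same split gave 64.1% and 30.8% in cluster 6, so the gap between the clusters was present on both sides. By position, 20.5% of TRAV14 family chains with TRAJ40 or higher (14.6 to 27.4) and 32.1% of those with TRAJ39 or lower (24.4 to 40.6) were shared, with overlapping intervals. In cluster 6 these shares were 43.4% (34.5 to 52.7) and 48.1% (43.3 to 52.9), so cluster 6 lay above cluster 4 on either side of the array. Within the DP stage, 6.88% of cluster 4 cells had a CDR3α also found in cluster 6 and 2.01% had one found in cluster 8, which hold 580 and 214 chains, and these shares are not corrected for that number. By V, J and nucleotide CDR3, 2 cells matched cluster 6 and 0 of 349 matched cluster 8, which allows a share of up to 0.86% (exact interval to 1.05%).

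The 10 cluster 4 CDR3α sequences found in most later cells were each carried by 1 cluster 4 cell, apart from a TRAJ42 join with 2. The amino acid sequence of the TRAJ13 join was carried by 216 later cells, of which 113 were CD4 SP, 60 CD25+ TRP and 38 Foxp3lo TRP, with 4 from the CD73+ and 1 from the CD73- Treg. The cluster 4 cell carried it without inserted bases and with TRAV14D-2, and 12 of the 216 later cells had that same V, J and nucleotide form. The same nucleotide CDR3 was assigned to TRAV14D-3-DV8 in 112 later cells and to TRAV14N-2 in 68. TRAV14N-2 and TRAV14D-2 do not differ over their last 270 bases. By these bases, the 68 cells cannot be told apart from the form of the cluster 4 cell, so the 12 may be too few.

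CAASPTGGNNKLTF, joined to TRAJ56 with 1 inserted base, was the one among the 10 for which most later carriers had the V, J and nucleotide form of the cluster 4 cell. Of its 38 later cells, 29 had the same V, J and nucleotide CDR3, with 12 in CD4 SP, 9 in CD25+ TRP and 8 in Foxp3lo TRP, and 2 cells of cluster 6 had it too. For 7 more of the 10, later cells had the nucleotide CDR3 of the cluster 4 cell, but each with another assigned TRAV14 copy. These were 13 of 15 later cells for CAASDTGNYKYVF (TRAJ40), 13 of 20 for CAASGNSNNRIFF (TRAJ31) and 10 of 11 for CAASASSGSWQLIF (TRAJ22). They were 7 of 37 for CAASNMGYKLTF (TRAJ9), whose later cells included 22 CD4 SP, and 5 of 8 for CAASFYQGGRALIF (TRAJ15). They were 3 of 7 for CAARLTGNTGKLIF (TRAJ37) and 2 of 13 for CAADYSNNRLTL (TRAJ7). In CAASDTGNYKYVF the 13 cells were assigned TRAV14-1 and the cluster 4 cell TRAV14-2, and in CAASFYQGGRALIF the 5 cells were assigned TRAV14N-1 and the cluster 4 cell TRAV14N-2. The TRAJ42 join carried by 2 cells of cluster 4, without inserted bases, had 6 later cells, of which 4 had the same nucleotide CDR3, and 2 of these, both CD73+ Treg, the same V gene as well. Beyond these, the form of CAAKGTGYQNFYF printed above was found in 1 CD4 SP cell, and that of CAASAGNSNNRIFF in 2 CD25+ TRP cells.

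In summed expression, cluster 4 was closest to cluster 8. Over gene rows with at least 50 CPM (UMIs scaled to 1 total for each class) in either class, the root-mean-square log2 ratio of summed UMIs was 0.345 between clusters 4 and 8 (0.338 to 0.352, counting error only), of which counting error alone would give 0.192. It was 0.683 between clusters 4 and 6 (0.674 to 0.691), with a counting part of 0.171, and 0.677 between clusters 6 and 8. The value was 0.981 to cluster 13, whose counting part was 0.536, and 1.63 to cluster 11. To the later populations it was 1.36 for CD25+ TRP, 1.37 for CD4 SP and 1.48 for Foxp3lo TRP, and it was 1.6 for CD73+ and 1.58 for CD73- Treg. Cluster 6 stood at 1.04 from CD4 SP and cluster 8 at 1.38. Cluster 4 was thus nearer in expression to cluster 8, at the far end of the TRAJ order, than to cluster 6, which lay between them in that order. The clusters were made from these values, so the distances are a description.

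Fewer gene rows differed by 2-fold or more from cluster 8 than from cluster 6. Against cluster 8, 15 of 3847 rows (0.39%) were at least 2-fold higher in cluster 4 and 26 (0.676%) at least 2-fold lower. Against cluster 6, 161 of 3768 rows (4.27%) were at least 2-fold higher and 146 (3.87%) at least 2-fold lower. The rows carry no names, so which genes these are is not known. Within cluster 4, the distance to cluster 8 was 0.517 for the 188 cells with TRAJ40 or higher (counting part 0.316), 0.433 for the 161 with TRAJ39 or lower (0.346) and 0.363 for the 824 without an α chain (0.207). Their distances to cluster 6 were 0.749, 0.731 and 0.719. All 3 parts of cluster 4 were thus closer to cluster 8 than to cluster 6, while the values among the parts differ in cell number and so in counting error.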

How the data were processed

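The cells and lists were chosen with earlier results of these data known. The UMI count matrix deposited by the authors holds 14790 unnamed gene rows, so the marker genes and gene lists that had been planned could not be used. The second deposited matrix holds natural log values, each equal to ln(1 + 10000 × count / cell total), and served as an alternative. Cell Ranger 3.1.0, Seurat 3.1.1, mm10 and GRCm38 appear in the submitters' processing notes. How cells were filtered, doublets treated and hashtags called: not given in the sources used here. No doublet caller was run.

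Metadata lines follow the barcode order of the matrix, which was checked by clonotype in 6982 of 6982 cells. Of the 12771 barcodes in the deposited contig table, 7379 are in the matrix, 388 of them in cluster 4. TRAV, TRAJ and CDR3 values use cells with exactly 1 productive α chain, and a shared CDR3α has the same amino acid sequence. The hashtag class named Treg was read as CD73- Treg. Coordinates are from GENCODE M21 (GRCm38). Named sequences are CDR3α in 3 or more cluster 4 cells and the 10 in most later cells. Named segments reach 5% of chains or have an interval apart from clusters 6 or 8 or CD4 SP. Where a count is 0, the share allowed is that of 3 cells. Expected different sequences follow the hypergeometric formula. Log2 ratios use UMIs summed per class, scaled to CPM with a prior of 1 CPM. The scripts (Python 3.11.15, NumPy 2.4.6, SciPy 1.17.1) were tested on simulated data.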

Additional observations from a re-analysis of the deposited data

Results flagged for a closer look

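Some α and β contigs of cluster 4 lie outside the comparisons above, at shares above the 0.253% that 3 cells would give. Of the 1187 cluster 4 cells, 14 (1.18%, 0.646 to 1.97) had 2 productive α chains, against 1.39% of all DP cells and 3.61% of CD4 SP cells, although the mice carry 1 functional TCRα allele. These cells held a median of 2876 UMIs (1770 to 4662), against 1545 for all cluster 4 cells. Both chains were of the TRAV14 family in 10 of the 14. A nonproductive α contig was present in 29 cells (2.44%, 1.64 to 3.49), of which 21 also had a productive chain, against 2.71% of all DP cells. Of the 23 such contigs with both segments named, 16 (69.6%, 47.1 to 86.8) used TRAJ40 or higher and 1 was of the TRAV14 family. In cluster 6, 12 of 33 used TRAJ40 or higher (36.4%, 20.4 to 54.9), with overlapping intervals. A productive β chain other than TRBV19, the V gene of most β contigs here, was found in 8 cluster 4 cells (0.674%, 0.291 to 1.32), against 0.894% of all DP cells. None of the 3 shares in cluster 4 was above that of all DP cells, which include cluster 4. In cluster 8, 0.13% of cells (0.00329 to 0.722) had 2 productive α chains and 0.65% (0.211 to 1.51) a nonproductive α contig. In cluster 6 these shares were 2.4% (1.47 to 3.69) and 4.57% (3.25 to 6.22). Other productive β chains were in 0.52% of cluster 8 cells and 0.962% of cluster 6 cells. Only the nonproductive share, against cluster 8, had an interval apart from that of cluster 4.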

How the results depend on the processing

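Of 41 values under an alternative setting, 27 stayed within the counting interval of the main value (or within 1.5 times it, for numbers of genes and of sequences) and 14 moved. The gap to cluster 6 in α recovery, TRAJ position, TRAV use and CDR3α sharing kept intervals apart under each alternative tried, and cluster 8 overlapped cluster 4 in recovery and sharing under each. Restricting to cells with 1500 to 2000 UMIs, an alternative chosen after seeing the data, gave 62.3% at TRAJ40 or higher and 64.4% with TRAV14-1, TRAV14-2 or TRAV14-3. CDR3α sharing was 2.29% by V, J and nucleotide CDR3 and 10% for sequences in at least 2 later cells. Chosen after seeing the data, it was 13.8% by nucleotide CDR3 and J with any V and 18.6% among all chains with TRAJ40 or higher. The distance to cluster 6 was 0.587 with a prior of 10 CPM, 0.717 with cells thinned to 1000 UMIs and 0.723 without the 5% of cells with most UMIs. The distance to cluster 8 was 0.309, 0.377 and 0.356 under these, 0.411 with rows of at least 20 CPM and 0.332 with trimmed mean scaling. Cluster 8 was nearer than cluster 6 in each case. The cause of these shifts was not tested. No paired analysis was possible because the 3 libraries come from the same cells and no group has a replicate. The 349 chains of cluster 4 and the 214 of cluster 8 limit the precision of single segments.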
